A study of Mus musculus with 12 samples.

Results

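PRAS40, the product of Akt1s1, and 9 genes of the mTOR pathway were examined as a group of 10 genes: Akt1s1, Mtor, Rptor, Rictor, Mlst8, Deptor, Tsc1, Tsc2, Rheb and Eif4ebp1. The group is 10 of 18193 genes that the array annotation names alone on at least 1 probe set, and all 30 probe sets that name 1 of the 10 genes alone were read. Akt1s1 was chosen by its measured signal, because it was higher in TgR211A hearts, so its values in comparisons with TgR211A hearts are given as a description with no test. Of the 30 probe sets, 22 lay above a filter on dim probe sets, set at the median of the mean log2 signal (5.44, a signal of 43.5), and at least 1 of the 22 reported each of the 10 genes. The filter used the mean over all 12 hearts, whatever their genotype.

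The series holds 12 arrays, each of left ventricular RNA from 1 mouse: 3 labelled ILKR211A Tg (TgR211A), 3 labelled ILKS343D Tg (TgS343D) and 6 WT littermates. Both lines over-express a mutated integrin-linked kinase (ILK) in the heart, as the methods describe. In ILKR211A an arginine of the pleckstrin homology-like domain is replaced by alanine, which is known to impair binding of the membrane lipid that activates ILK, whereas ILKS343D is described as constitutively active. All mice were C57BL/6, 8 to 9 weeks old and labelled female, except WT replicate 1 of the first set, which is labelled male. In that heart Xist, the RNA that marks an inactive X chromosome, had a signal of 718, against 703 to 864 in the other 11 hearts, and the Y-linked Eif2s3y had 4.47, against 0.64 to 8.17, so the label is not borne out. No unmutated ILK transgene is among the arrays, and the promoter and number of founders are not given in the labels. The WT littermates carry 2 series of replicate numbers, here called the first and the second set, and the labels tie neither to a line. Heart numbers 1 to 6 hold the TgS343D mice and the first set, and 7 to 12 hold the TgR211A mice and the second set. Within each block, same-numbered mice of the line and the WT set hold consecutive heart numbers. TgS343D replicate 1 has no number in its title and was numbered 1 here. The main tests have no term for such pairs, and a paired fit is given at the end. For TgR211A against TgS343D, line and position in the numbering thus cannot be told apart, while each line shares its block of numbers with a WT set. The methods mention myocardial infarction for these arrays, whereas the labels name no surgery. Nothing states separate litters, so p-values measure the spread between these 12 mice.

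mTOR is a kinase that works in 2 complexes. Raptor (Rptor) defines mTORC1, which drives protein synthesis and restrains autophagy when nutrients and growth factors are present, and Rictor defines mTORC2, which phosphorylates Akt. mLST8 belongs to both, and DEPTOR and PRAS40 inhibit, PRAS40 at mTORC1 through Raptor. Akt phosphorylates PRAS40, which then binds 14-3-3 proteins and lets go of mTORC1, and Akt also inactivates the TSC1 and TSC2 complex, which otherwise switches off Rheb, the small GTPase that activates mTORC1. 4E-BP1 (Eif4ebp1) is a translation repressor that mTORC1 phosphorylates. These steps are changes in proteins, and the arrays measure RNA only. In the heart the pathway is best known for its part in growth of cardiomyocytes and in the response to pressure overload.

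The deposited values are MAS5 signals on a linear scale, and a difference is given as a log2 fold change. A call is an adjusted p under 0.05 from limma, fitted over 22519 probe sets and adjusted by Benjamini-Hochberg over all of them. Ilk, which checks the labels, had signals of 8223, 9553 and 8622 in TgR211A hearts and 3258, 3272 and 4016 in TgS343D hearts, against 551 to 657 in WT hearts. Median array signal was 41.5 to 46.5 in TgR211A, 45.1 to 49.1 in TgS343D and 43.1 to 47.2 in WT hearts. All 8 cardiomyocyte markers were above the filter, with a summed signal of 76789 to 85015 in TgR211A, 71744 to 77968 in TgS343D and 74638 to 87586 in WT hearts, while 0 of 5 skeletal muscle markers were. Atrial markers summed to 2608 to 20084 in TgR211A, 1835 to 20843 in TgS343D and 2541 to 15898 in WT hearts, a spread within each group as wide as any difference between groups. In bulk tissue fewer cells of a type and less RNA per cell cannot be told apart.

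The promoters shown, from RefSeq with the build GRCm38.p6, are those of Akt1s1, Rheb and Hspa1a, an inducible Hsp70 gene. That of Akt1s1 had no match to any motif searched, and that of Rheb alone among the members had one. Hspa1a was among the genes most like Akt1s1 over the hearts, a likeness that rests on the TgR211A hearts. Each promoter shown runs from 250 bases before to 50 after the annotated start, and capitals mark a match. The windows are chr7:44850122-44850421 on the plus strand for Akt1s1, chr5:24842312-24842611 on the minus strand for Rheb, and chr17:34972107-34972406 on the minus strand for Hspa1a.
Akt1s1: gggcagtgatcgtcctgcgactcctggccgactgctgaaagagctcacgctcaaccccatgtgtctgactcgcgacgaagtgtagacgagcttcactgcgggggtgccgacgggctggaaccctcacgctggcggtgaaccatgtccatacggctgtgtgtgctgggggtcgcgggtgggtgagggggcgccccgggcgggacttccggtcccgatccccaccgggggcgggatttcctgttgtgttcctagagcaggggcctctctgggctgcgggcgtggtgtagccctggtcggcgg
Rheb: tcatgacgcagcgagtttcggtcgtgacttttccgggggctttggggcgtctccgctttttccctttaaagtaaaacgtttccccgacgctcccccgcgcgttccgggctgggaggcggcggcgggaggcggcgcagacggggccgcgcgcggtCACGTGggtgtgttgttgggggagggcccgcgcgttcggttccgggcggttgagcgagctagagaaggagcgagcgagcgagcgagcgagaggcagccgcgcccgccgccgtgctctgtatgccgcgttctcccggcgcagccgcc
Hspa1a: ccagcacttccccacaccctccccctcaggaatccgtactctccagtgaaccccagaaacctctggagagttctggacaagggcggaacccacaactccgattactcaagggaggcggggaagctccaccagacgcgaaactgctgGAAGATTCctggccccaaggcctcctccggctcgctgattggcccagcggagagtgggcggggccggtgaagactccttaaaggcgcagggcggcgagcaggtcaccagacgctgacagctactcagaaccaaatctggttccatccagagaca
The motifs were the 2 short forms of the heat shock element, GAANNTTC and TTCNNGAA, which heat shock factors bind in longer arrays, and the E-box CACGTG, read by basic helix-loop-helix factors such as Myc and TFEB. Each is its own reverse complement, so 1 reading covers both strands. Of 32851 promoter entries, 7.86% hold GAANNTTC, 8.52% hold TTCNNGAA and 7.15% hold CACGTG. Of the 10 genes 8 had an entry (not Deptor and Eif4ebp1), and the single match among them was CACGTG in Rheb. GAANNTTC was present once each in the promoters of Hspa1a, Hspa1b and Retreg3, 3 of the 5 genes whose level was most like that of Akt1s1. The other 2, Uap1 and Stip1, had no match to any of the motifs. Counted by gene, 9.04% of 27025 genes hold GAANNTTC. The 5 genes were picked from these same hearts, Hspa1a and Hspa1b are both inducible Hsp70 genes, and enrichment of the motif was not tested. A match is a run of letters, and no binding was measured.

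Akt1s1, the inhibitor of mTORC1, had the highest signal of the 3 genotypes in TgR211A hearts. On its brightest probe set, 1428158_at, the signals were 767, 769 and 783 in TgR211A hearts and 558, 546 and 491 in TgS343D hearts, against 561, 567 and 550 in the first and 501, 533 and 582 in the second WT set. All 3 TgR211A hearts lay above all other hearts, and the TgS343D hearts overlapped both WT sets. The means were 773 ± 8.45 in TgR211A (SD, n = 3), 532 ± 35.4 in TgS343D (SD, n = 3) and 549 ± 28.7 in WT hearts (SD, n = 6). The log2 fold change was 0.50 for TgR211A against WT (1.41-fold) and 0.54 for TgR211A against TgS343D (1.46-fold). In the order of levels TgR211A came first, then the first WT set (559 ± 8.45, SD, n = 3), the second WT set (538 ± 40.7, SD, n = 3) and TgS343D, and the last 3 did not differ beyond their spread.

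The TgS343D comparison was not used to choose Akt1s1 and could be tested. Its log2 fold change for TgS343D against WT was -0.05 (95% confidence interval -0.19 to 0.09, adjusted p = 0.995), and for the first against the second WT set 0.06 (-0.10 to 0.22, adjusted p = 0.884). With the first WT set alone as controls the TgR211A value was 0.47, and with the second set alone 0.52. Leaving out each mouse in turn kept it between 0.47 and 0.51, and it was 0.50 without the heart labelled male. Leaving out a TgS343D heart cannot change it. These values come from the comparison on which Akt1s1 was chosen, so their steadiness is a description and no support. Among 11189 genes, Akt1s1 ranked number 89 from the top by log2 fold change for TgR211A against WT.

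The other 2 probe sets of Akt1s1 did not show the difference from WT hearts. On 1452684_at the signals were 219, 266 and 232 in TgR211A hearts and 190, 209 and 224 in TgS343D hearts, against 230, 235 and 226 in the first and 245, 209 and 227 in the second WT set. Here the TgR211A hearts overlapped the WT hearts, with a log2 fold change of 0.06. They overlapped the TgS343D hearts too, at 0.20 for TgR211A against TgS343D. For TgS343D against WT it was -0.14 (95% confidence interval -0.33 to 0.05, adjusted p = 0.995), with an exact permutation p of 0.0357, two-sided over 84 splits, 1 of 22 such tests. On 1437736_at, below the filter, the signals were 31.2, 32.0 and 34.5 in TgR211A and 30.8, 21.4 and 16.3 in TgS343D hearts, against 24.01 to 58.8 in WT hearts. The TgR211A hearts again lay within the WT range there, with a log2 fold change of -0.11. They lay above the TgS343D hearts without overlap, the lowest of them at 31.2 and the highest TgS343D heart at 30.8, with 0.56 for TgR211A against TgS343D. Against WT hearts, the higher Akt1s1 signal of TgR211A hearts thus stands on 1 of 3 probe sets, and where each probe set lies on the transcript is not given in the sources used here.

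**Figure D1:**
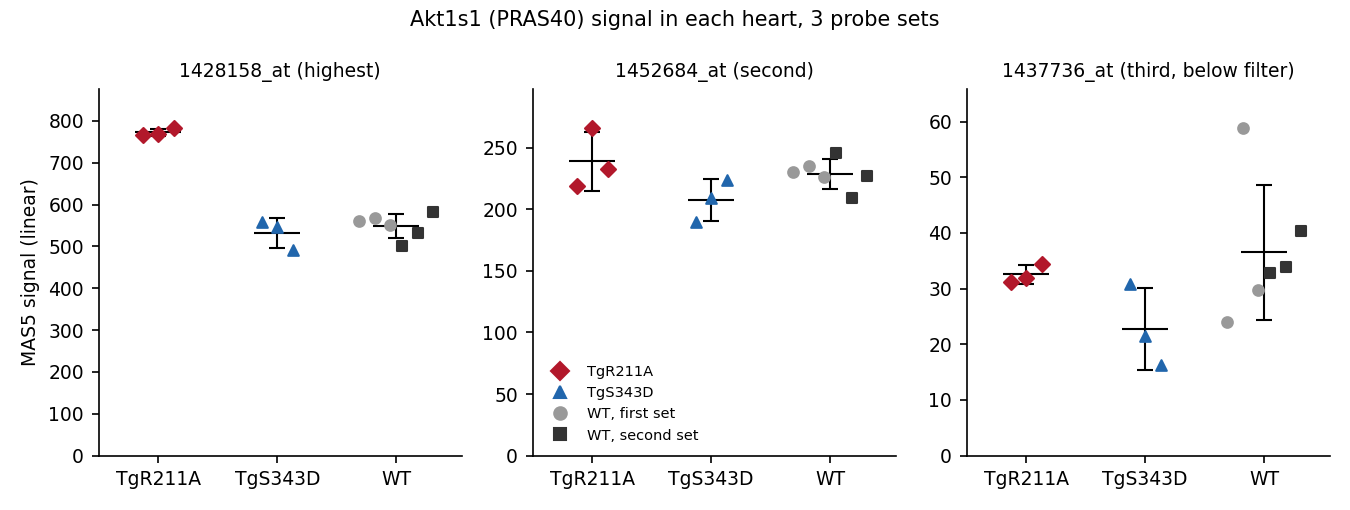
MAS5 signal of the 3 Akt1s1 probe sets (vertical axis, linear, from 0) in each heart by genotype (horizontal axis). Points are single mice, black bars the mean with SD. On 1428158_at the 3 TgR211A hearts sit between 767 and 783, above all other hearts, while on 1452684_at and 1437736_at they overlap the WT hearts.

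The 10 genes nearest to Akt1s1 on chromosome 7, 5 measured on each side in RefSeq order, gave 0 calls in all 3 genotype comparisons. Ptov1, the next gene, had signals of 1735, 2001 and 1761 in TgR211A hearts and 1527, 1338 and 1647 in TgS343D hearts, against 1303 to 1696 in WT hearts. Its TgR211A hearts were the highest of all, with a log2 fold change of 0.24 for TgR211A against WT (adjusted p = 0.516). Tbc1d17, on the other side, had 0.11 (adjusted p = 0.934).

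Of the other 9 genes, none was called in TgR211A against WT hearts. Of their 20 probe sets above the filter 0 passed an adjusted p under 0.05, against 0.204% of all 22519 probe sets tested. Under an unadjusted p of 0.05 there were 2, both lower in TgR211A hearts (1 of Mtor and 1 of Deptor), against a background of 7.51%. Log2 fold changes were above 0 on 7 of the 20, with a median of -0.06, beside a median of 0.0008 over all probe sets tested. The signals of TgR211A and WT hearts did not overlap on 1 of the 20, a probe set of Rictor, against 4.07% of all probe sets.

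In TgS343D against WT hearts 0 of the 22 probe sets of all 10 genes were called (background 0.00444%), and 0 had an unadjusted p under 0.05 (background 3.98%). The groups overlapped on all 22, where 2.03% of all probe sets had no overlap. In TgR211A against TgS343D hearts 0 of 20 were called without Akt1s1 (background 0.16%), and 1, of Mtor, had an unadjusted p under 0.05 (background 8.45%). Between the first and the second WT set 0 of 22 were called (background 0.00888%) and 0 had an unadjusted p under 0.05 (background 7.99%). Taking 1 probe set a gene, the highest, the median log2 fold change of the 9 genes was -0.04 in TgR211A against WT, -0.01 in TgS343D against WT and -0.02 in TgR211A against TgS343D, but 0.10 in the first against the second WT set. The comparisons with WT share the same 6 control hearts.

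**Figure D2:**
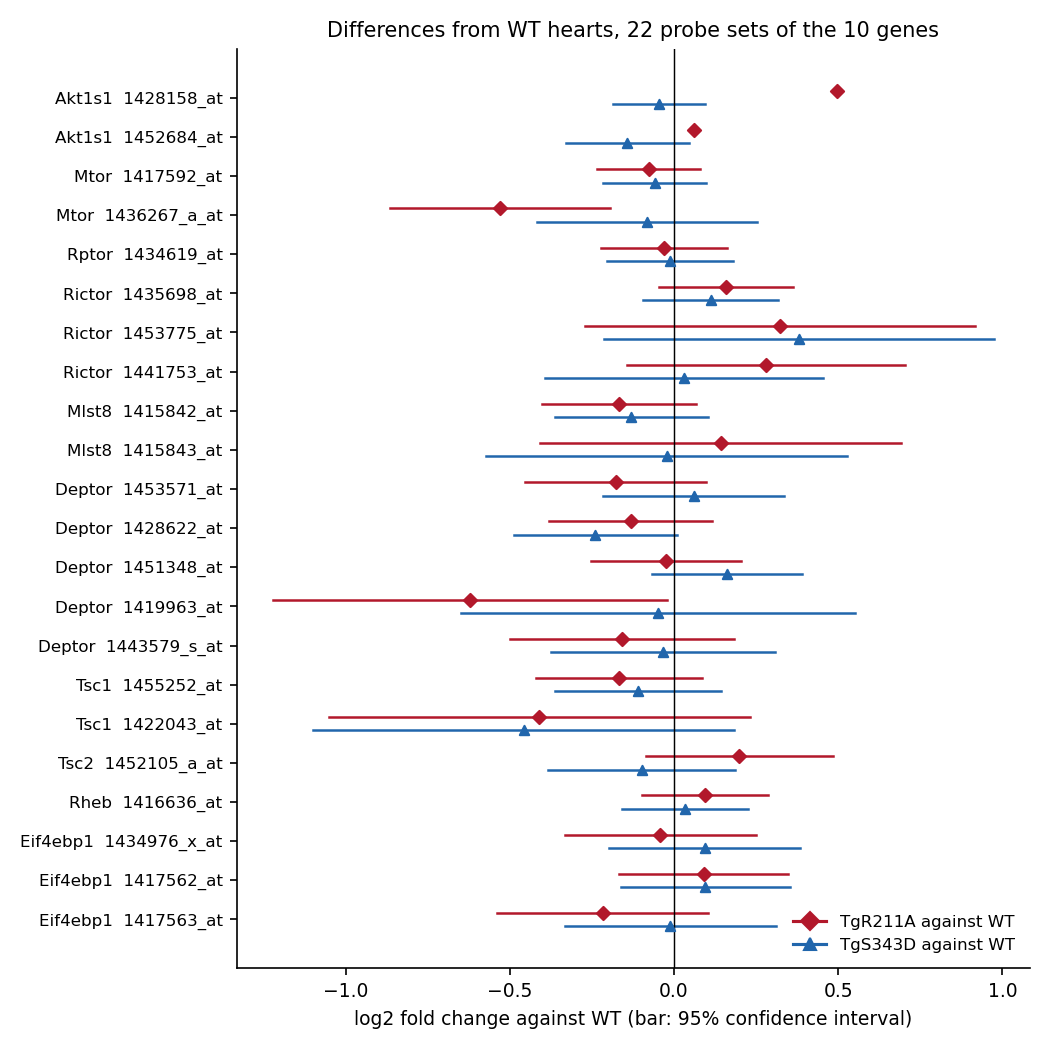
Log2 fold change against WT (horizontal axis) of the 22 tested probe sets of the 10 genes, for TgR211A (diamonds) and TgS343D (triangles), with 95% confidence intervals as bars. Akt1s1 has no interval for TgR211A, because it was chosen on that comparison. The interval leaves out 0 for Mtor 1436267_a_at and Deptor 1419963_at in TgR211A, and neither passed after adjustment.

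Mtor encodes the kinase itself. Its brightest probe set, 1417592_at, had 332, 326 and 325 in TgR211A and 339, 321 and 336 in TgS343D hearts, against 352, 380 and 355 in the first and 327, 354 and 309 in the second WT set. The groups overlapped, and the log2 fold change was -0.08 for TgR211A against WT (95% confidence interval -0.23 to 0.08, adjusted p = 0.893) and -0.06 for TgS343D against WT (adjusted p = 0.995). On the dimmer 1436267_a_at the signals were 81.0, 62.6 and 116 in TgR211A and 119, 121 and 104 in TgS343D hearts, against 122, 129 and 110 in the first and 119, 113 and 136 in the second WT set. TgR211A replicates 1 and 2 were lower than every other heart there and replicate 3 was within the WT range, for a log2 fold change of -0.53 (SE 0.16, 95% confidence interval -0.87 to -0.20, adjusted p = 0.330). Without TgR211A replicate 3, the heart within the WT range, it was -0.77 on the 2 hearts left and passed (adjusted p = 0.0486). No other probe set of the 9 genes passed with a mouse left out. The exact permutation test on all hearts gave p = 0.0357, 1 of 20 such tests. The lower signal of this probe set was not shared by the brighter one.

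Rptor, the scaffold of mTORC1 and the partner that PRAS40 binds, had no call in any comparison. Its 1 probe set above the filter had 375, 322 and 362 in TgR211A and 386, 321 and 367 in TgS343D hearts, against 353, 411 and 359 in the first and 378, 322 and 342 in the second WT set. All groups overlapped, with a log2 fold change of -0.03 for TgR211A against WT (95% confidence interval -0.22 to 0.16, adjusted p = 0.977) and -0.01 for TgS343D against WT (-0.20 to 0.18, adjusted p = 0.995).

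Rictor, the scaffold of mTORC2, was the single gene besides Akt1s1 with a probe set on which TgR211A and WT hearts did not overlap. On 1435698_at the signals were 155, 168 and 149 in TgR211A and 175, 143 and 141 in TgS343D hearts, against 143, 142 and 145 in the first and 147, 128 and 141 in the second WT set. The TgR211A hearts all lay above the WT hearts, the lowest of them (149) close to the highest WT heart (147), and the TgS343D hearts overlapped both. The log2 fold change was 0.16 for TgR211A against WT (95% confidence interval -0.05 to 0.36, adjusted p = 0.783), and the exact permutation p was 0.0119, two-sided, the smallest that 84 splits can give and 1 of 20 such tests. The other tested Rictor probe sets, 1453775_at and 1441753_at, gave 0.32 (adjusted p = 0.873) and 0.28 (adjusted p = 0.832). All 3 were thus above 0 in TgR211A hearts without passing the test, while the 2 below the filter had -0.03 and -0.42.

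Mlst8, a subunit of both complexes, had signals of 124, 115 and 141 in TgR211A and 127, 126 and 136 in TgS343D hearts, against 130, 140 and 125 in the first and 159, 137 and 163 in the second WT set. The 2 highest hearts were in the second WT set, and both lines overlapped the first set. The log2 fold change was -0.17 for TgR211A against WT (95% confidence interval -0.40 to 0.07, adjusted p = 0.810), -0.06 with the first WT set alone and -0.27 with the second alone. Its second probe set gave 0.14.

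Deptor, an inhibitor within both complexes, was the gene with the most probe sets, 6, of which 5 passed the filter. The highest, 1453571_at, had 138, 168 and 166 in TgR211A and 166, 182 and 210.99 in TgS343D hearts, against 220, 198 and 169 in the first and 144, 171 and 173 in the second WT set. Its log2 fold change was -0.18 for TgR211A against WT (95% confidence interval -0.45 to 0.10, adjusted p = 0.845) and 0.06 for TgS343D against WT (adjusted p = 0.995), with overlap of all groups. On 1419963_at, near the filter, the signals were 39.5, 28.4 and 57.4 in TgR211A and 85.8, 40.5 and 60.8 in TgS343D hearts, against 42.0 to 87.3 in WT hearts. TgR211A replicates 1 and 2 were lower than every other heart there, and the log2 fold change of -0.62 did not pass (95% confidence interval -1.22 to -0.02, adjusted p = 0.648). All 5 tested probe sets, read in the same hearts, were below 0 in TgR211A against all WT hearts, between -0.62 and -0.02. On 1453571_at the value was -0.31 with the first WT set alone and -0.05 with the second alone. With the second set alone 1451348_at was at 0.007 and 1419963_at at -0.67.

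Tsc1, the part of the TSC complex that stabilises TSC2, had 213, 158 and 178 in TgR211A and 200, 191 and 177 in TgS343D hearts, against 221, 187 and 175 in the first and 194, 247 and 206 in the second WT set. The groups overlapped, with a log2 fold change of -0.17 for TgR211A (95% confidence interval -0.42 to 0.08, adjusted p = 0.832) and -0.11 for TgS343D (adjusted p = 0.995), each against WT. Its dimmer tested probe set gave -0.41 for TgR211A (adjusted p = 0.849) and -0.46 for TgS343D (adjusted p = 0.995).

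Tsc2, the part that acts on Rheb, had 1 heart far above the rest. The signals were 1011, 617 and 614 in TgR211A and 518, 647 and 615 in TgS343D hearts, against 626, 707 and 634 in the first and 610, 636 and 588 in the second WT set. The log2 fold change of 0.20 for TgR211A against WT (95% confidence interval -0.09 to 0.48, adjusted p = 0.815) rested on TgR211A replicate 1, and without that heart it was -0.04. In the same heart Pkd1, the gene next to Tsc2 and looked up after these values were seen, had 314, against 207 to 316 in WT hearts. That heart also had the highest summed signal of the adipocyte markers, 338, against 48.2 to 125 in WT hearts (1 of 2 measured markers above the filter), and the part of this in Tsc2 was not tested.

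Rheb, the GTPase that activates mTORC1, had 2660, 2903 and 2929 in TgR211A and 2631, 2868 and 2640 in TgS343D hearts, against 3018, 2699 and 2759 in the first and 2667, 2091 and 2746 in the second WT set. Both lines lay within the WT range, with a log2 fold change of 0.10 for TgR211A (95% confidence interval -0.10 to 0.29, adjusted p = 0.888) and 0.03 for TgS343D (-0.16 to 0.23, adjusted p = 0.995), each against WT.

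Eif4ebp1, the translation repressor downstream of mTORC1, had 954, 932 and 838 in TgR211A and 1079, 1023 and 892 in TgS343D hearts, against 1050, 652 and 901 in the first and 1134, 1054 and 894 in the second WT set. WT hearts spread most, and both lines lay within their range. The log2 fold change was -0.04 for TgR211A against WT (95% confidence interval -0.33 to 0.25, adjusted p = 0.981) and 0.09 for TgS343D against WT (-0.20 to 0.38, adjusted p = 0.995). Its other probe sets, 1417562_at and 1417563_at, gave 0.09 and -0.22 for TgR211A against WT (adjusted p = 0.928 and 0.827).

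**Figure D3:**
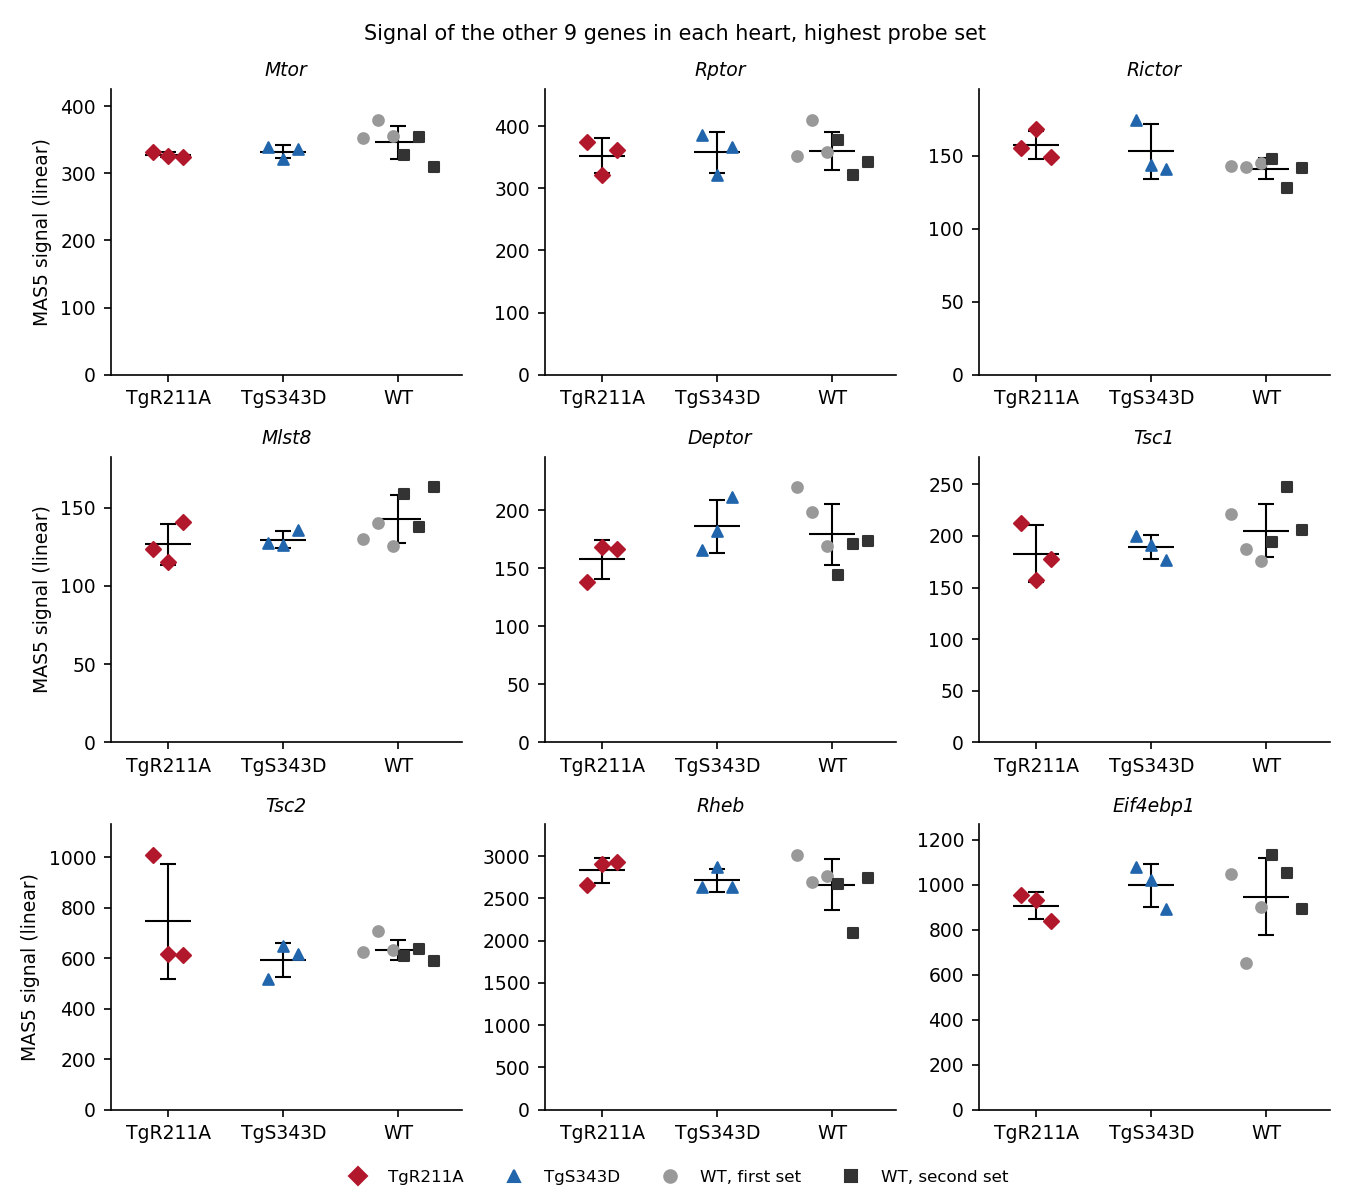
MAS5 signal (vertical axes, linear, from 0) of the highest probe set of the other 9 genes in each heart, by genotype (horizontal axes), with the mean and SD as black bars. TgR211A and WT hearts overlap in all but Rictor, where the TgR211A hearts lie at 149 to 168 and the WT hearts at 128 to 147, and TgR211A replicate 1 stands alone at 1011 for Tsc2.

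The 95% confidence intervals give the size of change left undetected. On the highest probe set of each gene, Mtor, Rptor and Rheb were the tightest of the 9 genes. Their intervals for TgR211A against WT ran from -0.23 to 0.08, -0.22 to 0.16 and -0.10 to 0.29 on the log2 scale. The dimmer tested Mtor probe set, 1436267_a_at, had -0.87 to -0.20, so the first interval does not bound Mtor by itself. A p that misses the threshold does not show that a gene was the same in 2 groups.

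The rest of the pathway was read from 8 lists of 128 genes, of which 114 had a probe set above the filter. None of the 114 was called in TgR211A against WT (0.206% of all 11189 genes were), TgS343D against WT (0.00894%) or TgR211A against TgS343D (0.152%). In TgR211A against WT hearts 6 had an unadjusted p under 0.05, 4 higher and 2 lower (background 7.52%). In TgS343D against WT hearts there were 3, 2 higher and 1 lower (background 3.79%), and in TgR211A against TgS343D hearts 11, 6 higher and 5 lower (background 7.85%). These shares lie below the background in both comparisons with WT and above it between the lines. TgR211A and WT hearts did not overlap for 5 of the 114, against 4.18% of all genes, and TgS343D and WT hearts for 3, against 1.99%. The median log2 fold change of the 114 was -0.0013 in TgR211A against WT, -0.02 in TgS343D against WT and 0.03 in TgR211A against TgS343D, beside -0.0014, -0.0008 and -0.0040 over all genes tested.

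**Figure D4:**
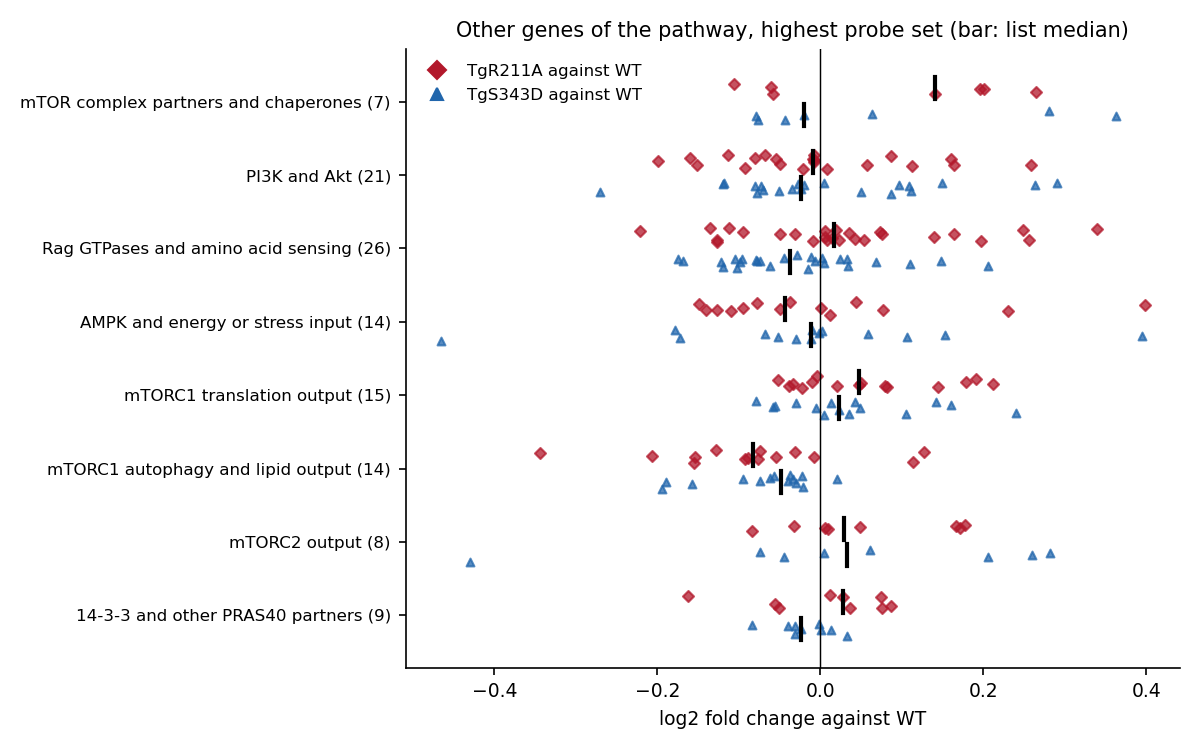
Log2 fold change against WT (horizontal axis) of 114 further pathway genes in 8 lists (vertical axis, number of genes in brackets), for TgR211A (diamonds, above) and TgS343D (triangles, below), with the list median as a bar. The largest median in size is 0.14, for the 7 partners and chaperones of the mTOR complexes in TgR211A hearts, and of the 14 genes of autophagy and lipid output 2 lie above 0 in TgR211A hearts and 1 in TgS343D hearts.

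Among partners and chaperones of the mTOR complexes, 7 tested, 4 were above 0 in TgR211A hearts, with a median of 0.14. Wac, an adaptor reported to aid assembly of mTORC1, had 541, 544 and 561 in TgR211A hearts, against 407 to 517 in WT hearts, with no overlap and a log2 difference of 0.20 (adjusted p = 0.555). Mapkap1 (Sin1), a subunit of mTORC2, averaged 518 ± 39.3 in TgR211A (SD, n = 3) and 470 ± 44.0 in WT hearts (SD, n = 6), with 0.14 (adjusted p = 0.769).

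Of the 21 genes of PI3K and Akt, which act on the pathway from above, 7 were above 0 in TgR211A hearts. Akt1, the kinase that phosphorylates PRAS40, differed by -0.16 on the log2 scale (adjusted p = 0.817), and Pik3r2, a regulatory subunit of PI3K, had a difference of 0.26 (adjusted p = 0.544). Gsk3b, a kinase that Akt inhibits and that ILK is reported to phosphorylate, had 827, 781 and 811 in TgS343D hearts, against 601 to 735 in WT hearts. These groups did not overlap, at a log2 difference of 0.26 (adjusted p = 0.995), and the TgR211A hearts, at 694, 588 and 614, lay within or just below the WT range. With Itfg2 (0.21, higher) and Stradb (-0.17, lower) it made up the 3 genes with an unadjusted p under 0.05 in TgS343D hearts.

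Of the 26 genes of Rag GTPases and amino acid sensing, which bring mTORC1 to the lysosome, 17 were above 0 in TgR211A hearts, with a median of 0.02. Seh1l, a subunit of the GATOR2 complex, had 424, 387 and 400 in TgR211A hearts, against 423 to 500 in WT hearts, and a log2 fold change of -0.22 (adjusted p = 0.393). Flcn, which acts on the Rag GTPases, had 0.34 (adjusted p = 0.720). Of the 14 genes of AMPK and energy or stress input 6 were above 0, and Prkaa2, the catalytic subunit of AMPK most abundant in muscle, had -0.13 (adjusted p = 0.714) and Prkag2 0.23 (adjusted p = 0.755).

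Among the 15 genes of mTORC1's translation output, 9 were above 0 in TgR211A hearts. Eef2, the elongation factor, had 6321, 6653 and 6252 in TgR211A and 5538, 5588 and 5566 in TgS343D hearts, against 5214 to 6190 in WT hearts. TgR211A hearts were thus above and TgS343D hearts within the WT range, with log2 fold changes of 0.15 (adjusted p = 0.560) and -0.06 (adjusted p = 0.995), and the difference between the lines of 0.20 did not pass (adjusted p = 0.395). Pdcd4, a translation inhibitor degraded after mTORC1 signalling, had 0.21 (adjusted p = 0.656).

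Of the 14 genes of mTORC1's autophagy and lipid output, 2 were above 0 in TgR211A hearts (median -0.08) and 1 in TgS343D hearts (median -0.05), and 0 were called in either. Ppargc1a, a coactivator of mitochondrial genes, had 819, 805 and 768 in TgR211A hearts, against 834 to 1055 in WT hearts, with no overlap and a log2 fold change of -0.21 (adjusted p = 0.511). Ambra1, an initiator of autophagy, had -0.34 (adjusted p = 0.684). Both comparisons use the same WT hearts, and no test was made of the list.

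Of the 8 genes of mTORC2 output 6 were above 0 in TgR211A hearts, with 0.17 for Prkcd (adjusted p = 0.689) and 0.18 for Ndrg1 (adjusted p = 0.820). Of the 9 genes of 14-3-3 and other partners of PRAS40 also 6 were above 0. Ywhae, a 14-3-3 protein, had 0.08 (adjusted p = 0.867), and Pim1, a kinase that phosphorylates PRAS40, had -0.16 (adjusted p = 0.869).

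The genes whose level was most like that of Akt1s1 over the 12 hearts were found by Pearson's r of log2 signal among 11188 other genes. They were Retreg3 (0.95), a receptor for autophagy of the endoplasmic reticulum, Hspa1b (0.93) and Hspa1a (0.92), both inducible Hsp70 genes, Uap1 (0.92), an enzyme of amino sugar synthesis, and Stip1 (0.89), a co-chaperone that links Hsp70 and Hsp90. Points share genotype, and with the genotype means removed r was 0.69 for Retreg3, 0.56 for Hspa1b, 0.38 for Hspa1a, 0.31 for Uap1 and 0.14 for Stip1. Over the 9 hearts without TgR211A, r was 0.61 for Retreg3, 0.45 for Hspa1b, 0.39 for Hspa1a, 0.50 for Uap1 and -0.08 for Stip1. All these r values are descriptions, and of the 12 hearts 3 are TgR211A.

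Retreg3 had 324, 330 and 319 in TgR211A and 261, 245 and 235 in TgS343D hearts, against 243, 230 and 237 in the first and 227, 230 and 278 in the second WT set. Hspa1a had 93.9, 168 and 142 in TgR211A and 53.4, 40.5 and 33.8 in TgS343D hearts, against 33.9, 43.4 and 28.9 in the first and 42.3, 38.2 and 55.1 in the second WT set. In both genes all TgR211A hearts lay above all others, as they did for Akt1s1, a separation that the choice by likeness to Akt1s1 favours. The fold change for TgR211A against WT was 1.35 for Retreg3 and 3.31 for Hspa1a, beside 1.41 for Akt1s1. Hspa1a averaged 40.3 in WT and 42.6 in TgS343D hearts, both below the filter signal of 43.5. It passed the filter only through the TgR211A hearts. Its place among the genes most like Akt1s1 rests on those hearts, and its fold change is set against dim WT signals. Ilk itself ranked number 138 by likeness (r = 0.69), with a raised level in TgS343D hearts that Akt1s1 did not have. Of the other 9 members Rictor came nearest, at rank 843 (r = 0.47), and Mtor stood at rank 8764 (r = -0.28).

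**Figure D5:**
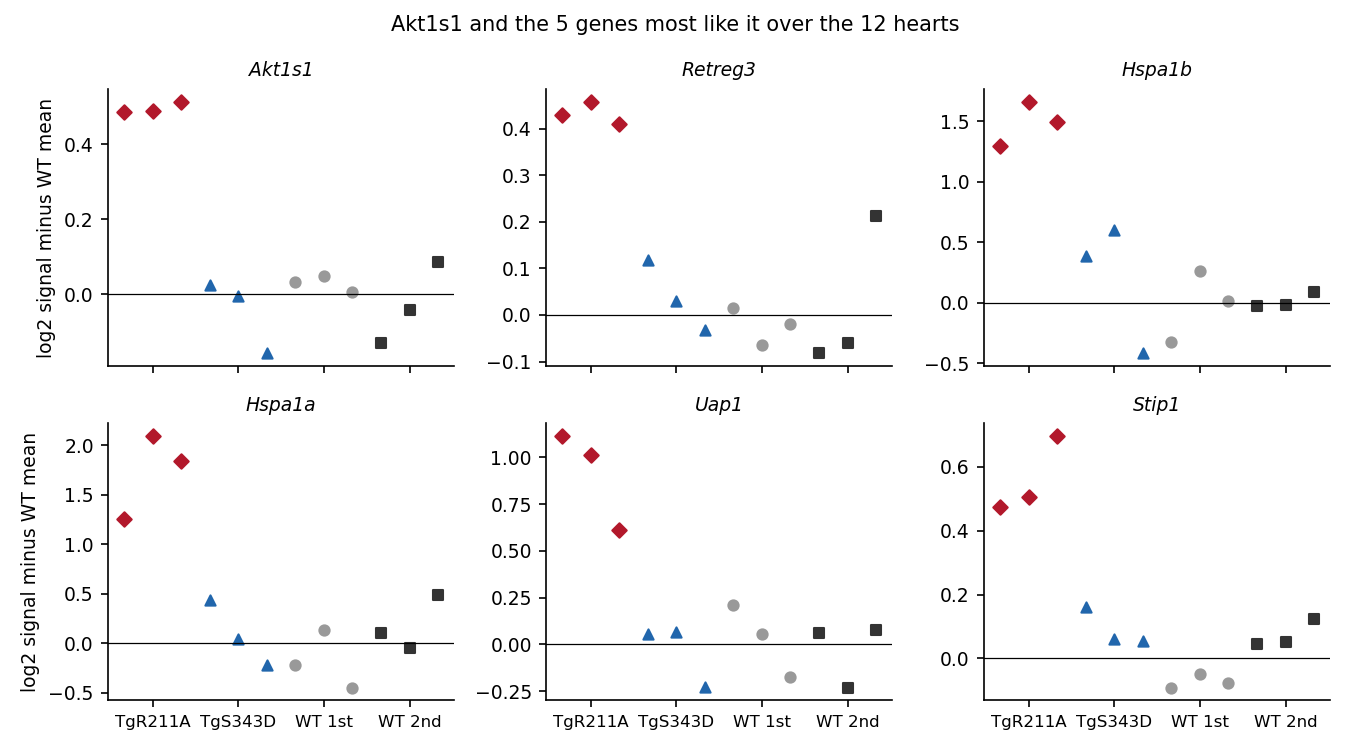
Log2 signal minus the WT mean (vertical axes, log2 scale, different ranges) of Akt1s1 and the 5 genes most like it, in each of the 12 hearts (horizontal axis, by group). In all 6 genes the 3 TgR211A hearts are the highest, which the way the genes were chosen favours, while TgS343D hearts lie among or close to the WT hearts.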

How the data were processed

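Left ventricular RNA of 12 mice was hybridized to Affymetrix arrays, 1 array per mouse. The deposited values are intensities on a linear scale (MAS5 signals), which the authors scaled on each array to the same trimmed mean. No source used here gives the MAS5 version or detection calls. Without the 64 array controls, log2 signals were used as deposited, with nothing added. The brighter 22519 of 45037 probe sets, by mean log2 signal over the 12 hearts, were fitted with limma 3.58.1 in R 4.3.3 (3 genotype groups, 4 for the WT sets, empirical Bayes with a trend, two-sided tests, Benjamini-Hochberg). The platform table names 1 gene for 34945 probe sets, and the brightest of these stands for a gene where 1 value a gene is used. Names, gene order and promoters come from RefSeq (GRCm38.p6), and the files name no build. The procedure was tested on simulated data, and plots were made in Python 3.11.15 (matplotlib 3.10.9).

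The members, lists and tests were chosen with earlier results of these data known. The genes named are the 10 members, the 2 of each list with the smallest p for TgR211A against WT, the 5 most like Akt1s1, its 5 neighbours on each side, Ilk and Hspa1a. Gsk3b, Itfg2, Stradb, Pkd1, Xist and Eif2s3y fall outside this rule and were added with their values known. Alternatives covered scaling, an offset of 16, the filter, the variance prior, weights for arrays, which arrays were fitted, the replicate block, each WT set alone, each mouse left out, the probe set, the threshold and an exact permutation test. Same-numbered mice of TgR211A and the second WT set deviated together in all 3 pairs (r 0.17, 0.18 and 0.12). These pairs hold consecutive heart numbers in the labels, which state no pairing. A paired fit was added after seeing the data. The number of arrays limits the precision. Any comparison by infarction was left out, because the labels name no surgery.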

Additional observations from a re-analysis of the deposited data

Results flagged for a closer look

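Of 48 groups of 6 WT hearts looked at, 4 held a heart far from the other 5 by Dixon's test, which chance gives in about 1 in 20 groups. Rictor had a signal of 128 in WT second set replicate 2, against 141 to 147 in the other WT hearts, and Rheb had 2091 in the same heart, against 2667 to 3018. Mapkap1 had 556 in WT first set replicate 1, against 434 to 470. Ptov1 had 1303 in WT first set replicate 2, against 1538 to 1696. For Eef2 every TgR211A heart lay above and every TgS343D heart below the mean of the WT hearts, and the difference of 0.20 on the log2 scale between the lines did not pass the test of that difference in limma (adjusted p = 0.395).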

How the results depend on the processing

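The counts of 0 calls among the probe sets of the 10 genes and among the 114 pathway genes held under both other scalings, an offset of 16, no filter and a stricter one, 3 other settings of the prior variance and weights, only the arrays compared, and each WT set alone. With an unadjusted p as the call there were 2 probe sets for TgR211A against WT, 1 for TgR211A against TgS343D and 6, 3 and 11 pathway genes for TgR211A against WT, TgS343D against WT and TgR211A against TgS343D. With the exact permutation test there were 2 of 20 probe sets (Rictor and Mtor) and 9 of 114 pathway genes for TgR211A against WT. For TgS343D against WT there were 1 of 22 probe sets (Akt1s1 1452684_at) and 5 of 114 pathway genes. The share of all probe sets under this test was not taken, so these counts have no background and are not read as a result about the genes. Leaving out each mouse in turn gave 0 to 1 probe sets for TgR211A against WT, the 1 being Mtor 1436267_a_at without TgR211A replicate 3. The log2 fold change of Akt1s1 for TgR211A against WT was 0.15 with the mean of all its probe sets, 0.061 on 1452684_at and -0.11 on 1437736_at, and 0.47 to 0.53 with other scalings, an offset, either WT set or a mouse left out. Of 608 alternative log2 fold changes of single member genes, set against the value of the highest probe set, 60 moved by more than the SD of WT hearts and 69 changed sign. An adjusted p was taken for 533 of them, on the highest probe set or the mean of all, and 0 passed (lowest 0.445), which leaves out dimmer probe sets such as Mtor 1436267_a_at.

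Over 18 pairs of same-numbered mice of different groups, r of their deviations ran from -0.20 to 0.21, with 5 over 0.1. All 5 lay between TgR211A and the second WT set (0.12 to 0.18, 3 pairs) or between TgS343D and the first (0.07 to 0.21, 3 pairs), and the labels tie no WT set to a line. Of 12 hearts 10 correlated best with their own number. Same-numbered mice of a line and the WT set in its block also hold consecutive heart numbers. The labels thus point to these pairs without stating them, and the main fit has no term for them. With the replicate block over all groups the counts of calls stayed at 0. The Akt1s1 value was 0.50, which a block cannot change when each group holds every replicate number. That block also joins same-numbered mice of the other pairs of groups, whose r was negative. A fit chosen after seeing the data, of each line against that WT set with a replicate block for the 6 pairs, also gave 0 calls among the probe sets of the 10 genes and the pathway genes. Of all 22519 probe sets it called 47 for TgR211A and 1 for TgS343D. Taking an unadjusted p as the call gave 3 of 20 probe sets for TgR211A and 3 of 22 for TgS343D. The background was 9.46% and 7.38% of all probe sets, against 7.51% and 3.98% in the main fit, which has all 6 WT hearts and no pairs. Of the 114 pathway genes, 14 and 11 were called in this way. Their shares lie above the background of probe sets, whereas in the main fit they lay below that of genes. The share of all genes was not taken for the paired fit, so these counts are not read as a result about the pathway. In this paired fit Akt1s1 was at 0.52, the value with the second WT set alone, which pairing cannot change. The lowest adjusted p were 0.278 for TgR211A (Mtor 1436267_a_at) and 0.642 for TgS343D (Deptor 1428622_at). Mlst8, lower in each TgR211A heart than in its same-numbered WT heart, was at -0.27 (adjusted p = 0.474, against 0.646 with the second WT set and no block). Probe sets close to the filter have the widest confidence intervals, and the number of arrays limits the rest.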
